A study of Mus musculus with 6 samples.

Results

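The mRNA levels of 34 genes of the integrated stress response and of the amino acid metabolism that it controls were examined in Raw264.7 cells after knockdown of *Etv5*. The 34 genes were chosen by name, as the sensors, transcription factors, feedback genes, biosynthetic enzymes and carriers of this response. They were chosen with earlier results of these data known, and all 34 were among the 24786 gene symbols of the table. Raw264.7 is a mouse macrophage line that was established from a tumor induced by Abelson murine leukemia virus. The cells had been infected with lentivirus carrying either a control shRNA (3 libraries, sh-NC) or one directed at *Etv5* (3 libraries, sh-*Etv5*), and *Etv5* encodes a transcription factor of the ETS family. The labels list strain C57BL/6 and age post natal day 21 for both groups, although the line is generally described as derived from a BALB/c mouse. They place the measurements at 24 or 48 hours after infection and do not say which time applies to these libraries, whereas the study describes the sequenced cells as stably transfected. The study's methods describe growth of lentivirus-infected Raw264.7 cells in puromycin before expression was measured. The part of puromycin in the results was not tested. The control cells thus also carried the lentivirus, and nothing in the sources says which of the study's shRNAs was sequenced or whether each library had its own infection. The p-values therefore measure only the spread between these libraries, which may be technical.

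In the integrated stress response, kinases that sense heme shortage, unfolded protein in the ER, viral double-stranded RNA or uncharged tRNA phosphorylate the α subunit of the initiation factor eIF2. General translation then slows, while the mRNA of the transcription factor ATF4 is translated better because of the short reading frames in its leader. ATF4, paired with other bZIP proteins, induces genes for amino acid synthesis and uptake, for tRNA charging and, under prolonged stress, for CHOP (*Ddit3*) and for the phosphatase subunit GADD34 (*Ppp1r15a*), which removes the phosphate from eIF2α. In macrophages the response is known from amino acid limitation, ER stress and viral infection. Transcript levels do not measure eIF2α phosphorylation or ATF4 protein.

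ATF4 binds DNA at composite C/EBP-ATF elements, whose core can be written TGATGNAA. This core was searched on both strands in the 250 bases before each RefSeq start site (GRCm38.p6). Promoters were found for 29 of the 34 genes, and the core was present for 7 of these 29 (24.1%). It was present for 2.42% of 8317 tested genes with a promoter and for 3.91% of all 27025 genes with one. The 29 include untested genes: among tested ones, 5 had the core and 21 had a promoter without it. The genes were picked by name as those of the ATF4 response, so the choice itself may favor the core. The matches are shown because 5 of the 7 genes were measured above the low-value filter and could be compared below. They are written on the strand of the gene with the core in capitals, in forward orientation for *Asns* and *Pycr1* and in reverse orientation for the other 5:
Asns: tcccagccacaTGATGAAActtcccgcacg
Got1: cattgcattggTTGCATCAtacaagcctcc
Pycr1: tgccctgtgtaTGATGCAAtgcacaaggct
Nupr1: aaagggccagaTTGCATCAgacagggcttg
Chac1: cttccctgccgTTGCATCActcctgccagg
Fgf21: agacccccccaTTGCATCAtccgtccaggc
Vldlr: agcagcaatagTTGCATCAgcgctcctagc

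The windows lie at chr6:7693214-7693243 for *Asns* (minus strand, core ending 16 bases before the start site) and chr19:43524689-43524718 for *Got1* (minus strand, 95 bases before). The cores of *Pycr1* (window chr11:120643833-120643862, minus strand) and *Nupr1* (window chr7:126625562-126625591, minus strand) end 96 and 103 bases before the start. The core of *Chac1* (chr2:119351038-119351067, plus strand) ends 186 bases before it, that of *Fgf21* (chr7:45615611-45615640, minus strand) 132 bases and that of *Vldlr* (chr19:27216809-27216838, plus strand) 193 bases. The windows of *Asns*, *Nupr1* and *Vldlr* lie before the RefSeq start used but inside the gene's span in GENCODE, which begins further upstream. Another RefSeq window of *Vldlr* lacked the core. An ETS consensus, CCGGAAGT, was found for 1 of the 29 genes (3.45%, against 7.66% of tested genes and 3.23% of all genes with a promoter). That gene was *Ddit3*, where the consensus lies in reverse orientation 193 bases before the start (chr10:127290582-127290611, plus strand), and no other motif searched overlapped it:
Ddit3: gacccaaagccACTTCCGGgtccgagacaa
The ER stress element, CCAAT and CCACG separated by 9 bases, was found in none of the 29 genes' windows, against 0.132% of tested genes. A match of letters is not evidence of binding, and the windows say nothing about elements elsewhere in a gene.

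The values are RPKM, a read density corrected for gene length and for the number of mapped reads, so that levels can be compared between genes per length. Their sum per library was between 320462 and 322949 for sh-NC and between 330454 and 340257 for sh-*Etv5*, and *Spp1* alone took 3.38% to 3.46% of the sum in the sh-*Etv5* libraries. The read numbers are unknown, but the commonest ratio between libraries among values under 0.1 RPKM put their relative depth between 0.897 and 1.06 of sh-NC replicate 1. In each other library only 28 to 55 of the 1014 to 1176 genes compared shared that ratio, so the estimate is weak. All 10 macrophage markers were at 1 RPKM or more in every library, with sums of 4928 to 5064 RPKM in sh-NC and 3862 to 4005 RPKM in sh-*Etv5* cells. The lower sum was mainly that of *Lyz2*, and 6 of the 10 were called lower, but *Adgre1*, *Itgam*, *Cd14* and *Spi1* were called higher. Of 22 markers of T cells, B cells, neutrophils, fibroblasts, epithelium and endothelium, *S100a8* alone passed 1 RPKM, and the other neutrophil markers *S100a9* and *Ly6g* were at 0 in all libraries. The summed neutrophil markers were at 0.123 to 0.491 RPKM in sh-NC and at 15.6 to 19.7 RPKM in sh-*Etv5* libraries, and those of endothelium at 0.171 to 0.363 and 1.09 to 1.24 RPKM, with no endothelial marker reaching 1 RPKM in any library. The part of these markers in the results was not tested. In such cultures, fewer cells with a transcript and less transcript per cell cannot be told apart. *Etv5* was at 9.18, 9.89 and 9.39 RPKM in sh-NC and at 5.19, 4.91 and 5.28 RPKM in sh-*Etv5* libraries (log2 fold change -0.78, limma adjusted p = 2.74e-07). Of the 50-base sequences of *Etv5*, 24.5% also occur in *Gm4798*, so its remaining level is uncertain.

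Most of the stress response genes were higher in sh-*Etv5* cells. Genes with at least 1 RPKM in at least 3 libraries were tested with limma on log2(RPKM + 1), and 30 of the 34 genes passed this filter. At an adjusted p-value under 0.05, 22 of these 30 genes rose, 6 fell and 2 gave no call. Calls in either direction were made for 74.3% of all tested genes. Of the 10738 tested genes, 33.3% were higher and 41% were lower, so a call by itself was common in these libraries. A rise of more than 1 on the log2 scale was seen for 13 of the 30 genes, against 6.23% of all tested genes. Both the 22 and the 13 include *Cth*, which passed the filter only through the sh-*Etv5* libraries. None of the 6 lower genes fell by as much as 1, against 3% of all tested genes, and they lay between -0.31 and -0.14. The median log2 fold change of the 30 genes was 0.72, and that of all tested genes was -0.05. The sh-NC and sh-*Etv5* values were fully separated for 28 of the 30 genes, against 76.4% of all tested genes.

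**Figure D1:**
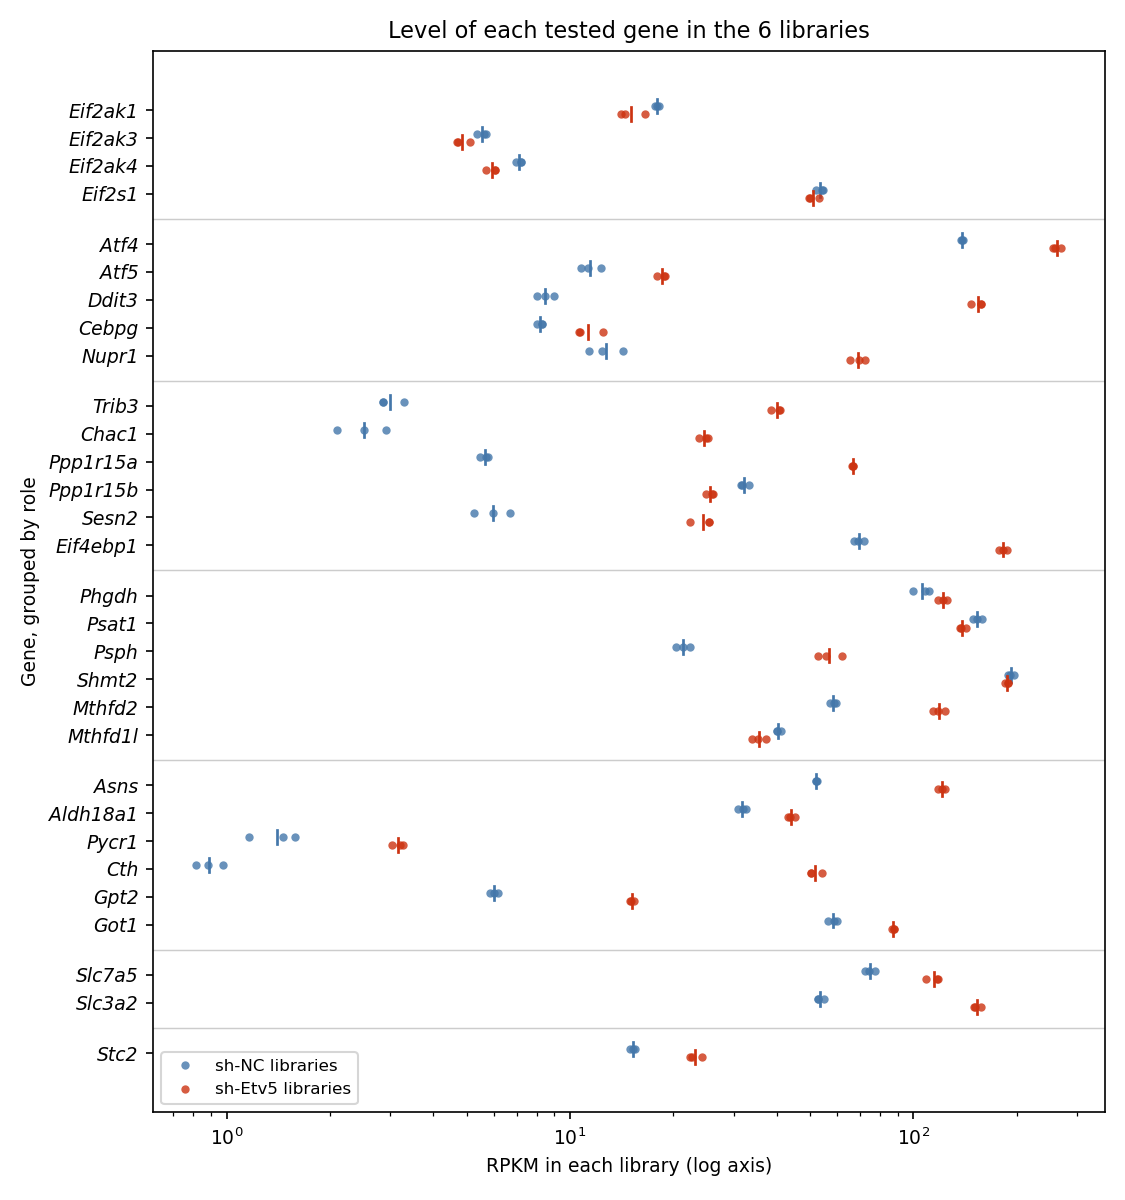
RPKM of the 30 tested genes in each library on a log axis, grouped by role from the eIF2 kinases at the top to *Stc2* at the bottom. Points are libraries (3 sh-NC, 3 sh-*Etv5*) and vertical bars are group means; the libraries of a group lie close together, and *Cth*, *Ddit3*, *Trib3* and *Ppp1r15a* show the widest gaps between the groups.

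The sensors of the response did not rise. *Eif2ak1* (HRI, the heme-regulated kinase) was at 18.2, 17.9 and 17.7 RPKM in sh-NC and at 14.1, 16.5 and 14.5 RPKM in sh-*Etv5* libraries. Every sh-*Etv5* library was below every sh-NC library, and the mean fell by 16.1% (log2 fold change -0.24, standard error 0.0571, limma adjusted p = 0.00265). *Eif2ak4* (GCN2, which senses uncharged tRNA) was at 7.19, 6.97 and 7.21 RPKM in sh-NC and at 6.05, 6.06 and 5.70 RPKM in sh-*Etv5* libraries, and its groups were separate as well (-0.23, limma adjusted p = 0.00305). *Eif2ak3* (PERK, the ER-resident kinase) was at 5.68, 5.61 and 5.35 RPKM against 4.73, 5.10 and 4.69 RPKM (-0.16, limma adjusted p = 0.0284). Its call was lost without sh-NC replicate 1 (0.0863) or 2 (0.0789) and without sh-*Etv5* replicate 1 (0.075) or 3 (0.0706), and with rescaling by the median ratio (0.096), within a range of 0.00659 to 0.096 over 15 alternatives. *Eif2s1*, which encodes eIF2α itself, was at 52.1, 54.2 and 54.7 RPKM in sh-NC and at 49.7, 50.1 and 53.2 RPKM in sh-*Etv5* libraries. These groups overlapped, and the log2 fold change of -0.07 (95% confidence interval -0.16 to 0.01) was not called (limma adjusted p = 0.115). It was called at -0.10 without sh-*Etv5* replicate 3 (limma adjusted p = 0.0264) and at -0.13 with libraries scaled to the same sum (0.00783), within a range of 0.00783 to 0.642 over 15 alternatives. Of the exon bases of *Eif2ak1*, 11.6% overlap genes on the opposite strand, *Aimp2* and *Ankrd61*, and for *Eif2ak3* the share is 8.05%. Whether the counting was strand-specific is not stated.

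All 5 transcription factors of the response were called higher, against 33.3% of all tested genes, but by very different amounts. *Atf4* (chromosome 15, 80255184 to 80257541, plus strand, GRCm38) was at 138, 139.6 and 139 RPKM in sh-NC and at 256, 259 and 270.2 RPKM in sh-*Etv5* libraries. It was the most abundant of the 5 in both groups and rose 1.88-fold, or by 0.91 log2 units (standard error 0.0325, limma adjusted p = 8.86e-10). *Ddit3* (chromosome 10, 127290774 to 127296288, plus strand), which encodes the pro-apoptotic factor CHOP, was at 8.99, 8.45 and 8.0 RPKM in sh-NC and at 158, 147 and 158 RPKM in sh-*Etv5* libraries. The mean thus went from 8.48 ± 0.494 to 154 ± 6.24 RPKM (SD, n = 3), an 18.2-fold rise (4.04 log2 units, limma adjusted p = 1.29e-13). This log2 fold change ranked 28 among the 10738 tested genes. Exons of *Ddit3* overlap *Mars* and *Gm4189* on the opposite strand over 4.73% of their bases. *Nupr1*, a small stress-induced cofactor of transcription whose promoter holds the ATF4 core shown above, rose from 12.4, 14.3 and 11.4 to 69.3, 65.4 and 72.2 RPKM. That is 5.42-fold, or 2.35 log2 units (limma adjusted p = 2.17e-10).

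The 2 remaining factors moved less. *Atf5*, a paralog of *Atf4* that is controlled by a similar leader, was at 12.3, 11.3 and 10.8 RPKM in sh-NC and at 18.8, 18.9 and 17.9 RPKM in sh-*Etv5* libraries (log2 fold change 0.65, limma adjusted p = 9.08e-07). *Cebpg*, whose protein dimerizes with ATF4, was at 8.04, 8.27 and 8.30 RPKM against 10.7, 10.6 and 12.5 RPKM (0.41, limma adjusted p = 0.000129). The libraries did not overlap for either gene, and both rises stayed below that of *Atf4*. Exons of *Atf5* overlap *Il4i1* and *Nup62* on the opposite strand over 8.23% of their bases.

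Among the feedback genes and stress effectors, 5 of 6 rose by more than 1 on the log2 scale, against 6.23% of all tested genes. *Trib3*, a pseudokinase that binds ATF4 and AKT, was at 3.28, 2.86 and 2.85 RPKM in sh-NC and at 40.9, 40.7 and 38.6 RPKM in sh-*Etv5* libraries, a 13.4-fold rise (3.36, limma adjusted p = 1.92e-12). *Chac1*, an enzyme that breaks down glutathione, went from 2.91, 2.52 and 2.10 to 24.9, 25.3 and 23.7 RPKM, or 9.81-fold (2.87, limma adjusted p = 1.13e-10). Both were low in every control library and clearly present in every knockdown library. *Sesn2*, a stress-induced inhibitor of mTORC1, went from 5.97, 5.24 and 6.71 to 25.4, 25.4 and 22.3 RPKM (1.87, limma adjusted p = 3.18e-09). *Eif4ebp1*, which encodes the repressor of cap-dependent translation 4E-BP1, went from 72.0, 67.3 and 68.8 to 188, 178 and 183 RPKM (1.39, limma adjusted p = 8.95e-11) and was the most abundant gene of this group.

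The regulatory subunits of the eIF2α phosphatase moved in opposite directions. *Ppp1r15a*, the stress-induced subunit GADD34 (chromosome 7, minus strand, 45522916 to 45526268), was at 5.70, 5.46 and 5.79 RPKM in sh-NC and at 66.8, 66.5 and 66.6 RPKM in sh-*Etv5* libraries. Its mean rose 11.8-fold, from 5.65 ± 0.173 to 66.6 ± 0.162 RPKM (SD, n = 3; log2 fold change 3.35, limma adjusted p = 1.53e-13). *Ppp1r15b*, the constitutive subunit CReP, was at 31.8, 33.2 and 31.4 RPKM in sh-NC and at 25.9, 26.1 and 24.9 RPKM in sh-*Etv5* libraries (-0.31, limma adjusted p = 3.11e-05). The fall of *Ppp1r15b* was the largest among the 30 genes. The constitutive subunit was the more abundant transcript in each sh-NC library, and the inducible one was the more abundant in each sh-*Etv5* library. Exons of *Ppp1r15b* overlap *Gm26616* on the opposite strand over 11.4% of their bases.

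**Figure D2:**
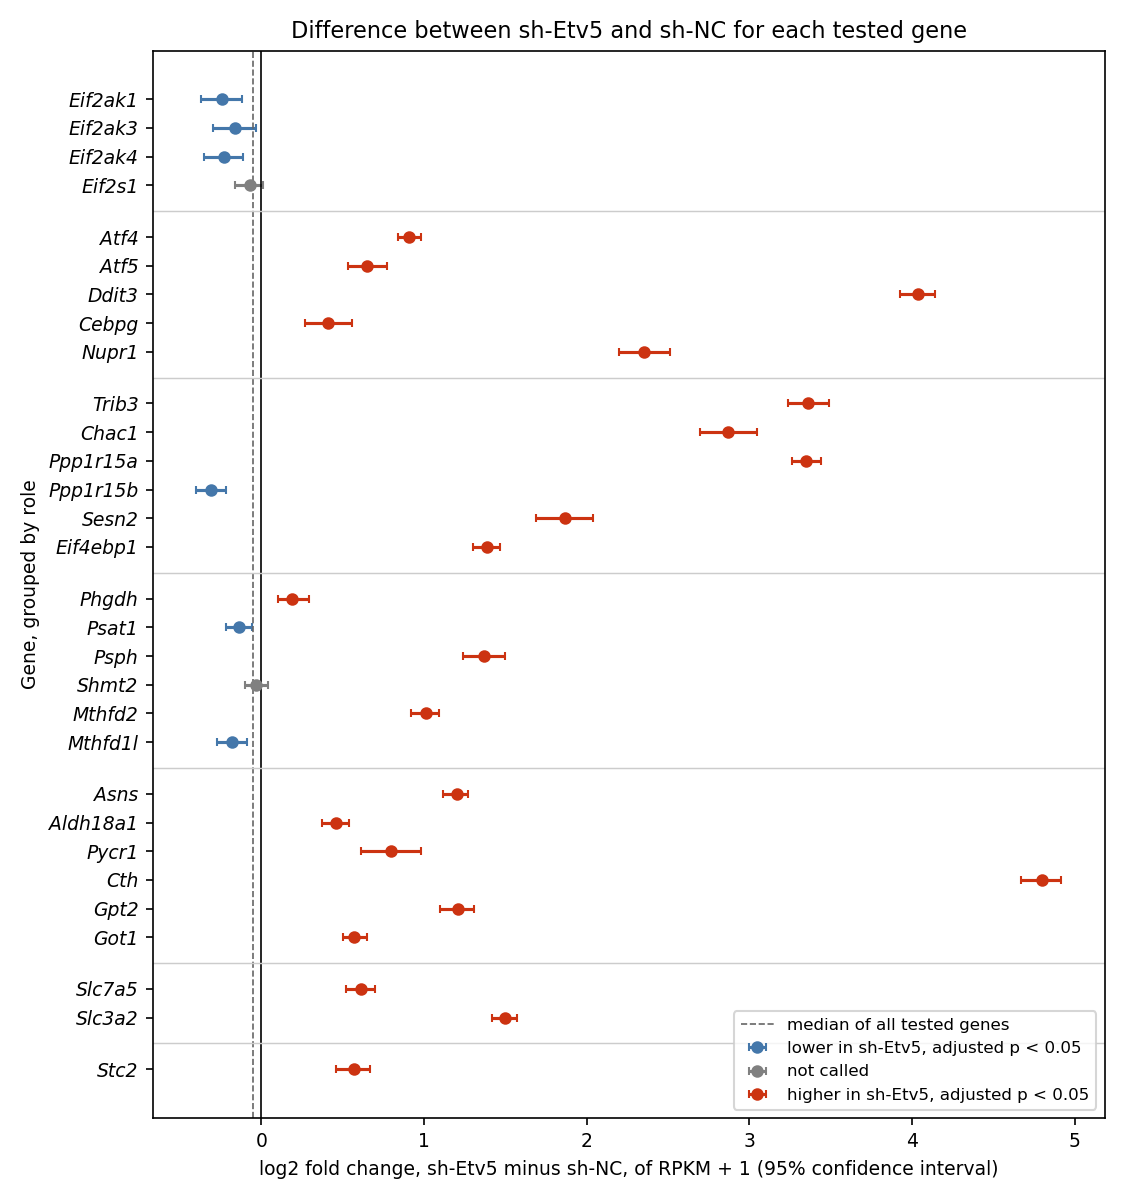
Log2 fold change (sh-*Etv5* minus sh-NC) of RPKM + 1 for the 30 tested genes with 95% confidence intervals from limma, in the same order as the levels. Red genes were higher, blue genes lower and grey genes not called; the dashed line is the median of all tested genes (-0.05), and the 4 genes of the sensing step lie left of 0 while the 5 transcription factors lie right of it.

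The serine and one-carbon enzymes were split. Of the enzymes that make serine from 3-phosphoglycerate, *Psph*, which catalyzes the last step, rose from 21.4, 22.4 and 20.3 to 55.8, 52.9 and 62.1 RPKM (log2 fold change 1.37, limma adjusted p = 3.59e-09). *Phgdh*, which catalyzes the first step, was at 111, 100.0 and 108 RPKM in sh-NC and at 122, 118 and 125 RPKM in sh-*Etv5* libraries (0.19, limma adjusted p = 0.00193). *Psat1*, the enzyme between them, was at 149, 153 and 159 RPKM against 138, 137 and 142 RPKM (-0.14, limma adjusted p = 0.00384). The groups were separate for each of the 3 genes, but the change of *Phgdh* and *Psat1* was small beside that of *Psph*, which was the least abundant of the 3 in every library. Of the 50-base sequences of *Phgdh* transcripts, 47.8% also occur in other genes, mainly *Gm7901*, *Gm9347* and *Gm8341*, so its level is uncertain. Exons of *Psph* overlap *Cct6a* on the opposite strand over 10.4% of their bases.

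In the mitochondrial folate pathway, *Mthfd2* rose, which encodes the dehydrogenase and cyclohydrolase for methylene-tetrahydrofolate. It was at 59.4, 58.6 and 57.2 RPKM in sh-NC and at 118, 114 and 124 RPKM in sh-*Etv5* libraries, a 2.03-fold difference (log2 fold change 1.01, limma adjusted p = 1.32e-09). *Shmt2*, which splits serine into glycine and a one-carbon unit, was at 197, 191 and 189 RPKM against 185, 189 and 189 RPKM. Its groups overlapped, and the log2 fold change of -0.03 (95% confidence interval -0.10 to 0.04) was not called (limma adjusted p = 0.353). The direction for *Shmt2* depended on the scaling of the libraries and was 0.02 when they were rescaled by the median ratio. It was called lower with the same sum (-0.10, limma adjusted p = 0.013) and with quantile normalization (-0.07, limma adjusted p = 0.0411). *Mthfd1l*, which releases formate, was lower, at 40.0, 40.0 and 41.1 RPKM in sh-NC and at 34, 37.2 and 35.2 RPKM in sh-*Etv5* libraries (-0.18, limma adjusted p = 0.00197).

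All 6 enzymes of proline, asparagine and other amino acid metabolism were called higher, against 33.3% of all tested genes. *Cth* (chromosome 3, 157894248 to 157925077, minus strand), which encodes cystathionine γ-lyase, the enzyme that releases cysteine from cystathionine, had the largest change of the 34 genes. It was at 0.816, 0.883 and 0.975 RPKM in sh-NC and at 50.2, 50.2 and 54.3 RPKM in sh-*Etv5* libraries. The mean went from 0.891 ± 0.0798 to 51.6 ± 2.35 RPKM (SD, n = 3), a 57.8-fold difference. With the pseudocount of 1 the log2 fold change was 4.80 (standard error 0.0571), which ranked 16 among all tested genes on that scale, and it was 5.84 with a pseudocount of 0.01. *Cth* was below 1 RPKM in every sh-NC library, so it passed the filter only through the sh-*Etv5* libraries.

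*Asns*, which makes asparagine from aspartate and whose promoter holds the ATF4 core close to the RefSeq start site, was at 52.2, 52.0 and 52.4 RPKM in sh-NC and at 124, 118 and 121 RPKM in sh-*Etv5* libraries. That is a 2.32-fold rise with little spread in the controls (1.20, limma adjusted p = 1.15e-10). *Gpt2*, the mitochondrial alanine aminotransferase, rose by a similar factor, from 6.18, 5.86 and 5.99 to 15.0, 15.1 and 15.4 RPKM (1.21, limma adjusted p = 2.31e-09). *Got1*, the cytosolic aspartate aminotransferase, went from 60.1, 56.6 and 58.7 to 88.1, 86.5 and 88.1 RPKM (0.57, limma adjusted p = 5.98e-08).

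Of the enzymes that turn glutamate into proline, *Aldh18a1*, which acts first, went from 32.6, 30.9 and 31.9 to 43.7, 45.2 and 43.1 RPKM (0.46, limma adjusted p = 1.02e-06). *Pycr1*, which acts last, went from 1.16, 1.58 and 1.46 to 3.04, 3.19 and 3.27 RPKM (0.80, limma adjusted p = 5.49e-06). *Pycr1* was the least abundant of the tested enzymes in the sh-*Etv5* libraries, and its log2 fold change was 1.18 with a pseudocount of 0.01. The 5 tested genes with the ATF4 core in the promoter window, *Asns*, *Got1*, *Pycr1*, *Nupr1* and *Chac1*, were all higher, with log2 fold changes from 0.57 to 2.87. Of the 21 tested genes of the response whose window lacks the core, 14 (66.7%) were higher, as were 3 of the 4 without a promoter sequence. Higher calls were made for 33.0% of all tested genes with a promoter and no core. Over all 201 tested genes with the core, 39.3% were higher and as many lower, and no link between the core and the change was tested.

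The subunits of the large neutral amino acid exchanger both rose. *Slc7a5*, the transporting light chain LAT1, was at 77.5, 72.5 and 74.4 RPKM in sh-NC and at 118, 117 and 109 RPKM in sh-*Etv5* libraries (log2 fold change 0.61, limma adjusted p = 1.42e-07). *Slc3a2*, the heavy chain CD98 that LAT1 shares with other carriers, was at 54.9, 52.8 and 52.9 RPKM against 157, 151 and 150.5 RPKM (1.50, limma adjusted p = 2.73e-11). The light chain was the more abundant transcript in every sh-NC library and the less abundant one in every sh-*Etv5* library. *Slc7a3*, a carrier of cationic amino acids, was between 0 and 0.195 RPKM in the 6 libraries, with overlapping groups, and was not tested.

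The secreted factors known as markers of this response were at or near 0. *Fgf21* had a listed value of 0 RPKM in every sh-NC library and in sh-*Etv5* replicate 1, and its highest value was 0.0355 RPKM. *Gdf15* was at 0.0392, 0.000953 and 0.0430 RPKM in sh-NC and at 0.327, 0.202 and 0.440 RPKM in sh-*Etv5* libraries. The groups of *Gdf15* did not overlap, but every value lay under the filter of 1 RPKM. With all 24786 genes in the fit the difference was 0.36 log2 units (limma adjusted p = 0.0206). *Vldlr*, a lipoprotein receptor, was listed at 0 RPKM in 5 libraries and at 0.000407 RPKM in the sixth. *Stc2*, a secreted glycoprotein, was the only tested gene of this group and went from 15.0, 15.3 and 15.5 to 22.6, 24.3 and 22.4 RPKM (0.57, limma adjusted p = 6.93e-07). The ATF4 core in the windows of *Fgf21* and *Vldlr* was thus not accompanied by transcript levels that could be compared here.

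Ratios between genes within a library do not depend on how libraries are scaled, and 11 such ratios were compared. With 3 against 3 libraries an exact two-sided permutation test cannot give a p below 0.1. That value was reached by 10 of the 11 ratios and is 0.11 after adjustment over the 11. It means only that the groups did not overlap, which also held for 76.4% of single tested genes. The ratios were chosen with earlier results of these data known, and the share over other gene pairs was not computed. *Ppp1r15a* relative to *Ppp1r15b* went from log2 ratios of -2.48, -2.60 and -2.44 in sh-NC to 1.37, 1.35 and 1.42 in sh-*Etv5* libraries. On the linear scale the ratio of the phosphatase subunits rose from 0.176 to 2.60. *Ddit3* relative to *Atf4* went from 0.061 to 0.59 and *Trib3* relative to *Atf4* from 0.0215 to 0.153. *Atf5* relative to *Atf4* fell slightly, from log2 ratios of -3.48, -3.63 and -3.69 to -3.76, -3.78 and -3.92.

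Unequal change was also seen between enzymes of a pathway and between subunits of a carrier. *Mthfd2* relative to *Shmt2* rose from log2 ratios of -1.73, -1.70 and -1.72 to -0.65, -0.73 and -0.62. *Psph* relative to *Phgdh* rose by 1.22 on the log2 scale and *Pycr1* relative to *Aldh18a1* by 0.72 (0.34 with a pseudocount of 1), while *Psat1* relative to *Phgdh* fell by 0.33. *Slc7a5* relative to *Slc3a2* went from log2 ratios of 0.50, 0.46 and 0.49 to -0.42, -0.37 and -0.47. *Ddit3* relative to *Cebpg* rose by 3.73. The remaining ratio, *Eif2ak3* relative to *Eif2ak4*, overlapped between the groups, with a difference of 0.07 (exact permutation p = 0.3).

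**Figure D3:**
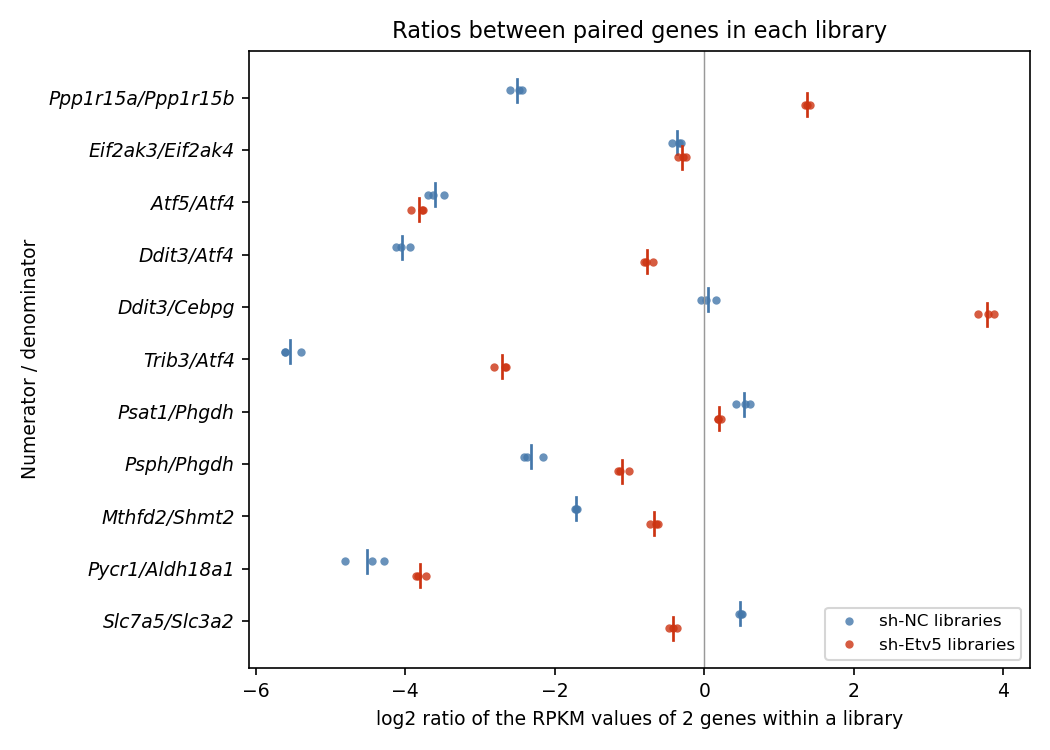
Log2 ratio of the RPKM values of paired genes within each library; points are libraries (3 sh-NC, 3 sh-*Etv5*) and vertical bars are group means. The groups are separate for 10 of the 11 ratios, overlap for *Eif2ak3*/*Eif2ak4*, and cross 0 for *Ppp1r15a*/*Ppp1r15b* (upward) and *Slc7a5*/*Slc3a2* (downward). Separation over other gene pairs was not counted.

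Other genes of the response and its neighbors were read from 4 lists. Over all tested genes, 33.3% were higher and 41% lower. The first list held 53 genes that act with eIF2, are known ATF4 targets or belong to amino acid metabolism, and 47 were tested. Of these 47, 25 were higher (53.2%), 13 lower (27.7%) and 9 not called, with a median log2 fold change of 0.16. The median was 0.08 without the filter, with 9 genes lower, and 0.10 with the same sum in each library. *Atf3*, a stress-induced bZIP repressor, went from 12.0 ± 0.415 to 119.5 ± 2.69 RPKM, *Gadd45a*, a growth arrest gene, from 1.01 ± 0.186 to 17.4 ± 0.823 RPKM and *Sqstm1*, the autophagy receptor p62, from 108 ± 1.93 to 977 ± 10.2 RPKM (SD, n = 3). In log2 units the differences were 3.21, 3.20 and 3.17. The limma adjusted p was 1.53e-13 for *Atf3* and 2.57e-14 for *Sqstm1*, while *Gadd45a* reached 1 RPKM in a single sh-NC library (0.913, 1.23 and 0.899 RPKM) and so passed the filter through the sh-*Etv5* libraries. The single gene of this list that fell by more than 1 was *Sesn1* (-2.14), named after its value was seen, whereas its paralog *Sesn2* rose. *Eif2ak2*, the kinase for double-stranded RNA, was also named after its value was seen and was lower (-0.32, limma adjusted p = 5.86e-05), as were the other kinases.

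All 20 aminoacyl-tRNA synthetases of the cytosol were tested, and 14 were higher (70%), 4 lower (20%) and 2 not called. The shares over all tested genes were 33.3% higher and 41% lower. The median log2 fold change of the synthetases was 0.31. The number lower was 2 without sh-NC replicate 1 or 3 or sh-*Etv5* replicate 1, and also without the filter, without the trend, and with quantile or median ratio scaling. The largest changes were those of *Sars* (67.0 ± 1.41 to 195 ± 4.51 RPKM, log2 fold change 1.53), *Nars* (96.3 ± 1.96 to 199 ± 4.40 RPKM, 1.04) and *Aars* (57.6 ± 1.59 to 111 ± 4.68 RPKM, 0.93; SD, n = 3), which charge serine, asparagine and alanine. Among 23 tested amino acid carriers outside the 34 genes, 15 were higher (65.2%) and 7 lower (30.4%), with a median of 0.43. The median was 0.18 without the filter and 0.28 with quantile normalization, and 12 were higher and 4 lower with a mean of at least 5 RPKM required. *Slc7a7*, another partner of *Slc3a2* that passed the filter through the sh-*Etv5* libraries, went from 1.10 ± 0.258 to 8.75 ± 0.184 RPKM, the glycine carrier *Slc6a9* from 2.21 ± 0.234 to 12.5 ± 0.819 RPKM and the neutral amino acid carrier *Slc1a4* from 2.60 ± 0.166 to 12.2 ± 0.293 RPKM (SD, n = 3). *Slc43a2*, named after its value was seen, was the carrier that fell by more than 1 (-1.28).

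Genes of the other branches of the ER stress response, those of IRE1, XBP1 and ATF6, were mostly higher as well. Of 33 tested genes, 26 were higher (78.8%, against 33.3% of all tested genes), 5 lower (15.2%, against 41%) and 2 not called. The median log2 fold change was 0.48, and 6 genes (18.2%, against 6.23%) were above 1. *Herpud1*, a component of ER-associated degradation that stands in this list and in the first, went from 23.9 ± 1.22 to 100.4 ± 0.635 RPKM. *Hspa5*, the ER chaperone BiP, went from 465 ± 4.50 to 1625 ± 31.9 RPKM, and the co-chaperone *Dnajb9* from 4.67 ± 0.495 to 16.6 ± 1.41 RPKM (SD, n = 3). In log2 units the changes were 2.03, 1.80 and 1.64, with limma adjusted p-values from 2.24e-12 to 7.56e-09. Whether the 34 genes differ from these lists as a set was not tested.

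**Figure D4:**
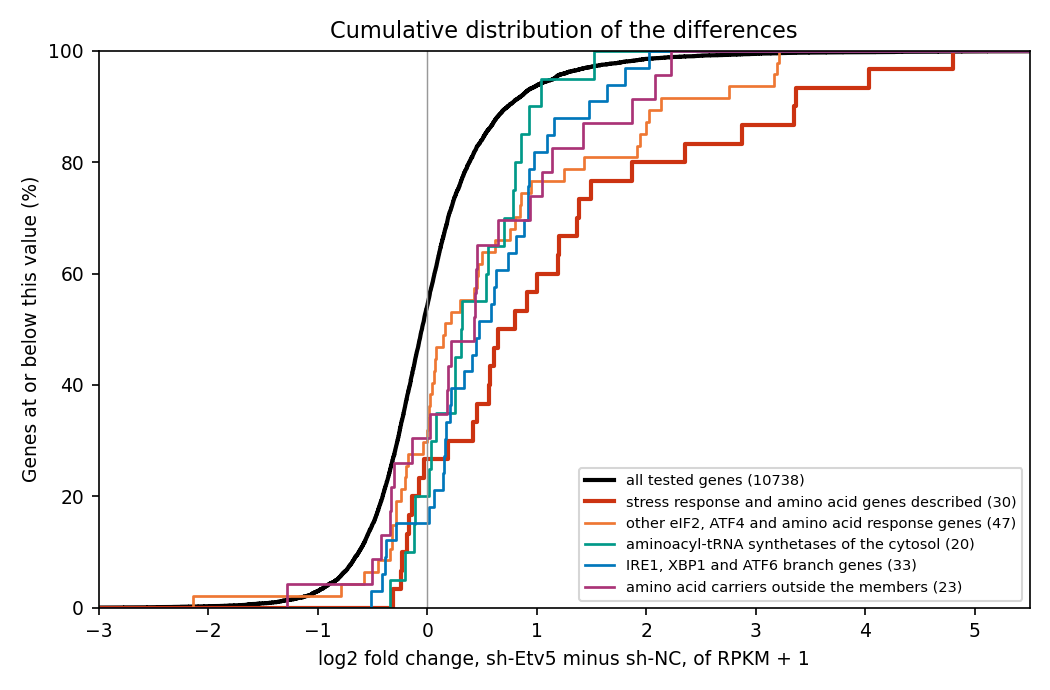
Cumulative share of genes (%) against the log2 fold change (sh-*Etv5* minus sh-NC) of RPKM + 1, for all 10738 tested genes, the 30 tested stress response and amino acid genes and the 4 further lists with 47, 20, 33 and 23 tested genes. The curve of the 30 genes (median 0.72) lies right of the curve of all genes (median -0.05) over most of its length, and the medians of the 4 lists are between 0.16 and 0.48.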

How the data were processed

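Messenger RNA of 3 sh-NC and 3 sh-*Etv5* libraries of Raw264.7 cells was compared, with groups and replicate numbers from the sample labels. The authors deposited RPKM values per gene symbol and library, taken from coverage tracks and not log transformed; the labels name genome build mm10, and aligner, annotation and strand setting are not given in the sources used here. Low values held no common step within a library, so whole reads were not recovered. Genes that reached 1 RPKM in 3 or more libraries entered a limma fit (version 3.58.1, R 4.3.3) of log2(RPKM + 1), two-sided, with an eBayes trend and no covariate, adjusted over 10738 genes by Benjamini-Hochberg. Fold changes on this scale understate the change of low genes. In simulated data for this comparison, with 10738 genes and independent normal noise, only 100 genes were changed by 1 and 100 by 0.5 (log2). Of these, 97 and 83 were recovered, with 10 false calls. In the real fit 74.3% of genes were called, so these figures do not carry over to its calls. Ratios were compared by exact permutation in SciPy 1.17.1. Positions and overlaps are from GENCODE M21 (GRCm38), promoters from RefSeq (GRCm38.p6). The 34 genes, the lists and the ratios were chosen with earlier results of these data known. Named genes were *Etv5*, the 34 genes and the 3 largest called changes per list whose groups did not overlap. *Sesn1*, *Eif2ak2*, *Slc43a2* and the marker genes were named outside this rule. The 15 alternatives changed the pseudocount (0.1 or 0.01), dropped the filter or required a mean of 5 RPKM, used 3 other scalings, fitted no trend, added a replicate block or left out each library.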

Additional observations from a re-analysis of the deposited data

How the results depend on the processing

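Of 449 values of single genes under 15 alternatives, 439 kept their direction and their side of the threshold, and 27 of the 30 genes kept both under every one of these settings. The exceptions were *Eif2ak3*, *Eif2s1* and *Shmt2*. *Pycr1* was not tested with the mean filter, and *Shmt2* reversed to 0.02 (limma adjusted p = 0.589, range 0.013 to 0.724) when libraries were rescaled by the median ratio over tested genes. The number of genes called higher lay between 21 and 23, lower between 5 and 8, and higher by more than 1 between 12 and 14. The median of the 30 genes was 0.80 with pseudocounts of 0.1 and 0.01, 0.59 for 34 genes without the filter, 0.65 with a mean RPKM of at least 5, 0.67 with the same sum, 0.68 with quantile normalization, 0.77 with the median ratio and 0.71 to 0.74 with each library left out. Minus the median of all genes, it was 0.86 with either pseudocount, 0.59 without the filter, 0.73 with the mean filter, 0.75 with quantile normalization and 0.76 to 0.80 with libraries left out. The share of higher among called genes was 44.8% as deposited and 38.9% to 50.1% under the other scalings.

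The list medians moved in the same way. For the eIF2, ATF4 and amino acid response list they were 0.08 without the filter, 0.22 with the mean filter, 0.10 with the same sum, 0.18 with quantile normalization and 0.22 with the median ratio. For the synthetases they were 0.25 (same sum) and 0.36 (median ratio). For the IRE1, XBP1 and ATF6 branches they were 0.46 without the filter and with the mean filter, 0.41 (same sum), 0.53 (median ratio) and 0.47 to 0.50 with libraries left out. For the carriers they were 0.18 without the filter, 0.28 with quantile normalization and 0.36 to 0.41 with libraries left out. With a pseudocount of 1 in the ratio, the difference was 3.66 for *Ppp1r15a*/*Ppp1r15b*, 3.13 for *Ddit3*/*Atf4*, 2.45 for *Trib3*/*Atf4* and 0.34 for *Pycr1*/*Aldh18a1*. The cause of these shifts was not tested. A fit with a replicate block changed no call among the 30 genes (22 higher, 6 lower) and gave 3539 higher and 4361 lower over all genes; same-numbered libraries did not deviate together (correlations 0.074, -0.071 and -0.035, with 2 of 6 libraries closest to their own number). The unknown read depth limits *Gdf15*, *Fgf21*, *Slc7a3* and *Vldlr*, which lie below the filter.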

Other observations

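Beyond the 34 genes, the ATF4 core TGATGNAA was found in the promoter windows of 196 other tested genes. Of these 196 genes, 74 (37.8%) rose and 79 (40.3%) fell after the knockdown, and their median change was -0.02 log2 units. A rise of more than 1 was seen for 24 of them (12.2%), against 5.42% of the 8116 tested genes whose windows lack the core. The core has 8 letters with 1 open position and also occurs in promoters of genes with no known link to ATF4, and this count was made after the values of the 34 genes had been seen. No test was run on it.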
